A study of Homo sapiens with 3 samples.

Results

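The genes described here handle iron and zinc in the intestinal epithelium: SLC11A2, CYBRD1, TFRC, FTH1, FTL, SLC40A1, SLC39A4 and SLC30A1. They were chosen by symbol, and all 8 were found among the 33538 genes of each count matrix. Their RNA was counted in single cells from a Transwell co-culture of Caco-2 and HT29, established colorectal cancer lines that respectively give rise to absorptive, enterocyte-like cells and to mucus-secreting cells. The 2 control libraries came from co-cultures without lipopolysaccharide (LPS). The third library came from a co-culture that received 1 ng/ml LPS of Escherichia coli O111:B4 in its apical chamber from day 22 for 24 h. All 3 libraries were harvested on day 23 by trypsin, and all hold both lines, so that every line or cell class is compared within a library. The methods describe as many Transwells prepared for sequencing as there are libraries, with each line at a single passage number, and whether the wells were seeded independently is not given in the sources used here. The LPS group is 1 library. The p-values measure only the spread between these libraries, which the tests estimate in part from all genes together.

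Dietary iron enters the enterocyte as ferrous iron through DMT1, the divalent metal transporter that SLC11A2 encodes, after reduction at the brush border by duodenal cytochrome b, the product of CYBRD1. Iron bound to transferrin is instead taken up by the transferrin receptor TFRC. Inside the cell iron is stored in ferritin, a shell of heavy chains (FTH1), which oxidize iron, and light chains (FTL), which help it to mineralize. It leaves through ferroportin (SLC40A1), the only known iron exporter of vertebrates. Zinc is taken up from the lumen by ZIP4 (SLC39A4), the transporter lost in acrodermatitis enteropathica, and is pumped out of the cytosol by ZnT1 (SLC30A1), which metal-responsive transcription induces. Iron regulatory proteins bind stem-loops called iron-responsive elements. Bound in a 5′ UTR they block translation, and bound in the 3′ UTR of TFRC they protect the mRNA from decay.

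In the annotation GENCODE v44 on GRCh38, matched by gene ID, SLC11A2 spans chr12:50979401-51028566, CYBRD1 chr2:171522247-171558129, TFRC chr3:196012511-196082153 and FTH1 chr11:61959718-61967634. FTL spans chr19:48965309-48966879, SLC40A1 chr2:189560590-189583758 and SLC30A1 chr1:211571568-211579161.

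The stem-loops are shown because they are the sequences by which these mRNAs answer to iron, and because they separate the storage genes from the receptor. Transcripts of GENCODE v44 were searched in the sense direction for a C, 5 bases, the loop CAGTG with a further base other than G, and 5 bases pairing with the first 5, G·U pairs allowed. Each site is printed 5′ to 3′ in DNA letters with 29 bases, the CAGTG of the loop in capitals. On GRCh38, the site of FTH1 lies in the 5′ UTR at chr11:61967574-61967602 on the minus strand. That of FTL lies in the 5′ UTR at chr19:48965335-48965363 on the plus strand. That of SLC40A1 lies in the 5′ UTR at chr2:189580661-189580689 on the minus strand and is part of 1 of its 5 coding transcripts. The 4 sites of TFRC lie in the 3′ UTR on the minus strand, in mRNA order at chr3:196050979-196051007, chr3:196050575-196050603, chr3:196050510-196050538 and chr3:196050463-196050491.
FTH1 5′ UTR: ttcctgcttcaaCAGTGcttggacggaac
FTL 5′ UTR: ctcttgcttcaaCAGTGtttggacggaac
SLC40A1 5′ UTR: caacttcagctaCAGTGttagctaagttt
TFRC 3′ UTR site 1: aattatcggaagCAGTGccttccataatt
TFRC 3′ UTR site 2: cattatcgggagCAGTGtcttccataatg
TFRC 3′ UTR site 3: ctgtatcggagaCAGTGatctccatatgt
TFRC 3′ UTR site 4: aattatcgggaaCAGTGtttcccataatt
Of 19701 canonical coding transcripts, 11 (0.0558%) held such a match in the 5′ UTR, among them FTH1, FTL and SLC40A1, and 97 (0.492%) held one in the 3′ UTR. SLC11A2, CYBRD1 and SLC30A1 held none with this stem, which says only that these letters are not in those UTRs. The pattern misses any element with a mismatch or a further bulge within the 5 pairs, in these genes and in TFRC alike. A match is a description of the sequence and not evidence of binding in these cells.

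The libraries held 5811, 6495 and 6838 barcodes for control 1, control 2 and LPS, of which 4633, 4989 and 4850 were kept as cells, with medians of 5459, 4103 and 3574 UMIs (unique molecular identifiers, 1 per captured RNA molecule). Each cell was assigned to a line by genes other than the members, and 54, 98 and 98 cells that fell between the lines were left out. The kept cells comprised 3926, 3910 and 3895 Caco-2-line cells and 653, 981 and 857 HT29-line cells. APOA1, an apolipoprotein of enterocytes, stood at 6347, 4854 and 4242 CPM (UMIs of the gene per 1000000 UMIs of the summed cells) in Caco-2-line cells, and LCN2, a lipocalin of HT29 cells, at 227, 168 and 175 CPM in HT29-line cells. Free RNA carried over between cells was gauged with 7 genes made by Caco-2 cells, which stood in HT29-line cells at a median of 4.67%, 4.86% and 9.66% of their Caco-2-line level, with a highest value of 27.7% for RBP4. In the other direction, LCN2 stood in Caco-2-line cells at 0.592% to 1.98% of its HT29-line level, and KLK10 and TCN1 lay within that range. Unlike LCN2 and the 7 genes, KLK10 and TCN1 were not withheld from the assignment of lines, so they are not an independent gauge. Summed markers of fibroblasts, leukocytes and endothelial cells reached at most 13.0, 27.9 and 2.86 CPM, and 1 of 3 fibroblast markers was at 0 throughout. Between 9 and 11 barcodes were shared by any pair of libraries, none with identical counts.

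The first question was how the lines differ in the handling of the metals. Summed over all cells of a line, HT29-line cells carried far more mRNA of the ferritin heavy chain than Caco-2-line cells. They carried less of the importer SLC11A2 and of the exporter SLC40A1, but not less than every cluster of Caco-2-line cells, as given below. FTH1, the heavy chain that oxidizes stored iron, stood at 3912, 3857 and 3041 CPM in Caco-2-line cells and at 21461, 22648 and 16697 CPM in HT29-line cells of control 1, control 2 and LPS. The groups lay far apart in each library. The difference was 5.35-fold (log2 fold change 2.42 ± 0.06 SE, n = 3 libraries, edgeR quasi-likelihood test, adjusted p = 1.95e-18). FTL, the light chain, stood at 5901, 6541 and 5493 CPM in Caco-2-line and at 8820, 9129 and 8112 CPM in HT29-line cells. It was higher in HT29-line cells of every library, but by only 1.39-fold (log2 0.47 ± 0.06, edgeR adjusted p = 2.64e-07). The study's gene lists of the lines, made from bulk RNA, place FTH1 with HT29, and FTL, TFRC and SLC40A1 with Caco-2. For FTL the direction here was thus the reverse of that list. These members were taken out of the lists before cells were assigned.

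Of the 8 members, 3 were called higher in HT29-line cells and 4 lower, while among all 14027 genes tested 35.1% were called higher and 38.0% lower. Since so many genes differ between the lines, the number of members called does not set them apart, and the sizes are what is described. SLC11A2, the ferrous iron importer, stood at 319, 225 and 343 CPM in Caco-2-line and at 116, 163 and 154 CPM in HT29-line cells. The lowest Caco-2-line value lay above the highest HT29-line value, and the test gave a level 2.13-fold lower in HT29-line cells (log2 fold change -1.09 ± 0.13, edgeR adjusted p = 1.20e-07). The size varied between libraries. In control 1, control 2 and LPS the HT29-line level was 36.2%, 72.3% and 45.0% of the Caco-2-line level, so control 2 showed the smallest difference. SLC40A1, the exporter, stood at 168, 181 and 214 CPM against 114, 141 and 153 CPM. It too did not overlap between the lines and was 1.45-fold lower in HT29-line cells (log2 -0.54 ± 0.09, edgeR adjusted p = 9.87e-06). Both stood in HT29-line cells at 36.2% or more of the Caco-2-line level, above the highest of the free RNA genes.

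TFRC, the transferrin receptor, stood at 286, 299 and 394 CPM in Caco-2-line and at 281, 290 and 285 CPM in HT29-line cells. The values of the controls were nearly alike in both lines, and the higher Caco-2-line value was that of the LPS library. The call (log2 fold change -0.25 ± 0.09, edgeR adjusted p = 0.0171) was lost without that library (log2 -0.11, edgeR adjusted p = 0.363). CYBRD1, the reductase, was close to the limit of detection in both lines. Its 70, 76 and 42 UMIs in Caco-2-line cells gave 2.75, 3.84 and 2.55 CPM, and its 2, 6 and 3 UMIs in HT29-line cells gave 0.496, 1.45 and 0.857 CPM. It passed the filter on low counts through its Caco-2-line sums, the group where it is higher. Its call as lower in HT29-line cells (log2 -1.77 ± 0.40, edgeR adjusted p = 0.000435) is therefore given as a description only. In HT29-line cells CYBRD1 stood at 18.0% to 37.9% of the Caco-2-line level. Over all libraries this range overlaps that of the free RNA genes, through RBP4 alone. Within control 1, control 2 and LPS CYBRD1 stood at 18.0%, 37.9% and 33.6%, beside 17.5%, 20.7% and 27.7% for RBP4, the highest free RNA gene. The other free RNA genes stood at 10.8% or less, and why RBP4 stands apart was not tested. These values rest on at most 6 HT29-line UMIs in a library.

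Of the zinc transporters among the members, SLC39A4 was not called between the lines and SLC30A1 differed little. SLC39A4, the luminal importer, stood at 56.7, 45.0 and 52.2 CPM in Caco-2-line and at 53.3, 53.3 and 57.1 CPM in HT29-line cells. These values overlapped, and the log2 fold change was 0.02 (95% interval -0.19 to 0.23, edgeR adjusted p = 0.839). SLC30A1, the exporter, stood at 24.3, 24.9 and 31.1 CPM against 28.8, 35.9 and 37.1 CPM. It was higher in HT29-line cells within each library and was called at a log2 fold change of 0.28 ± 0.11 (edgeR adjusted p = 0.0331), but the call was lost in DESeq2 and in 6 further settings. Without control 2 the log2 fold change was 0.18 (edgeR adjusted p = 0.235), without the LPS library it was 0.32 (edgeR adjusted p = 0.0694), and at 1500 UMIs in every cell it was 0.01.

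**Figure D1:**
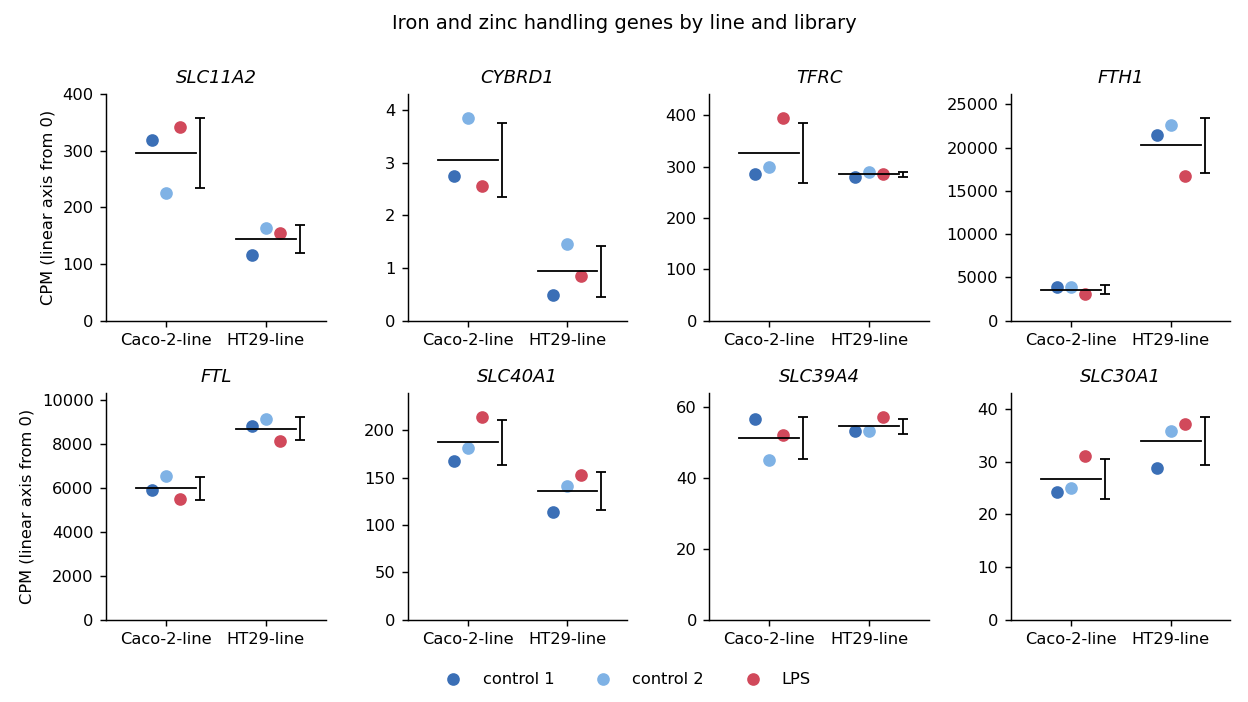
Level of each of the 8 genes in Caco-2-line and HT29-line cells, in CPM on linear axes from 0. Each point is 1 library, the horizontal line is the mean of the 3 libraries and the bar beside it is ± 1 SD. FTH1 is the gene whose groups lie farthest apart, whereas TFRC, SLC39A4 and SLC30A1 overlap between the lines.

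Ferritin mRNA differed in make-up as well as in amount. FTH1 and FTL together took 0.981%, 1.04% and 0.853% of all UMIs in Caco-2-line cells and 3.03%, 3.18% and 2.48% in HT29-line cells. The ratio of FTH1 to FTL UMIs was 0.663, 0.590 and 0.554 in Caco-2-line cells, so the light chain prevailed in every library. In HT29-line cells it was 2.43, 2.48 and 2.06, and the heavy chain prevailed in every library. The 3′ assay counts 1 tag per molecule and does not depend on transcript length, but capture can differ between genes, so the ratio is best read between cells and not as the ratio of the chains. Both genes also have processed pseudogenes of near-identical sequence that have no rows in the matrices, and reads shared with them are not resolved here.

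The same held cell by cell. Among cells with at least 10 ferritin UMIs, the median share of FTH1 was 38.9%, 35.8% and 35.5% in Caco-2-line cells and 70.7%, 70.4% and 67.3% in HT29-line cells. FTH1 exceeded 50% of ferritin UMIs in 19.4%, 13.8% and 13.6% of Caco-2-line cells, and in 88.8%, 87.1% and 87.7% of HT29-line cells. From the 5th to the 95th percentile the shares of single cells ran from 19.7% to 62.2% in Caco-2-line and from 39.0% to 88.6% in HT29-line cells of control 1, so the lines overlapped. Cells are not replicates, and no test was run on them.

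**Figure D2:**
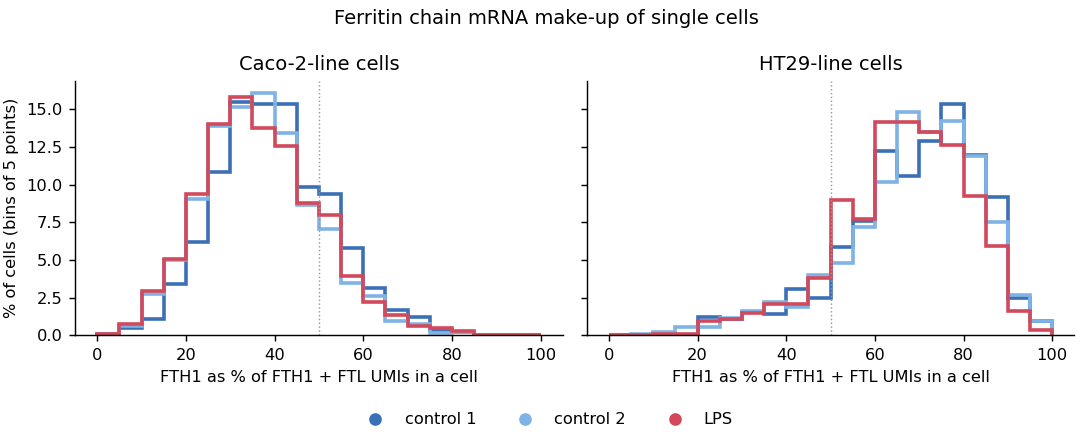
Share of FTH1 in the ferritin UMIs (FTH1 plus FTL) of single cells, as the percentage of cells in bins of 5 percentage points, for cells with at least 10 ferritin UMIs; lines are libraries and the dotted line marks 50%. Caco-2-line cells peak below 50% and HT29-line cells above it in all 3 libraries.

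The cells were also grouped into clusters by genes other than the members and the listed metal genes. Of 12 clusters, 10 had at least 20 cells in every library, and they are described without tests, since genes of the same cells defined them. The ferrous iron importer SLC11A2, the zinc importer SLC39A4 and the iron exporter SLC40A1 were high in the enterocyte-like cluster, led by APOA4, of 2025 cells. SLC11A2 stood there at 830, 671 and 988 CPM. It was as high in a cluster of 681 cells led by SST and ITGA5, which had no class, at 917, 649 and 804 CPM, and these ranges overlapped. The next cluster, led by S100A9 and ANKRD37, had 292, 240 and 363 CPM, below all values of the first pair. The lowest was a stem-like cluster led by PLA2G2A and OLFML3, at 66.4, 57.1 and 79.9 CPM, which overlapped with 43.6, 89.0 and 108 CPM in a goblet-like cluster. The leading genes of the stem-like cluster also included DKK1, which the paper reports in transit-amplifying-like cells, so its values are not those of stem-like cells alone. It held 3019 cells, whereas in a finer clustering (Leiden resolution 0.8) the stem-like cluster led by PLA2G2A held 928. The highest and the lowest cluster mean differed 12.2-fold. The undifferentiated HT29-like cluster, led by SNCG and LCN2, had 120, 164 and 153 CPM, above all values of that stem-like cluster. The lower SLC11A2 of the HT29 line as a whole thus depends on which Caco-2-line clusters are summed.

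SLC39A4 was the member most restricted to the enterocyte-like cluster, where it stood at 173, 180 and 200 CPM. In the cluster that followed, that of SST and ITGA5, it stood at 81.4, 57.7 and 61.0 CPM, with no overlap. It was 9.63, 8.33 and 8.90 CPM in the stem-like cluster of PLA2G2A, and in the enteroendocrine-like cluster, led by CLPS and INSM1, it gave 0, 1 and 3 UMIs. In the undifferentiated HT29-like cluster it stood at 55.4, 55.2 and 57.8 CPM, so the similar line values of SLC39A4 average over unlike Caco-2-line clusters. SLC40A1 stood at 343, 364 and 459 CPM in the enterocyte-like cluster, again above all others, with 252, 329 and 291 CPM in the cluster of SST and ITGA5. Its lowest values were 48.8, 57.6 and 62.9 CPM in the goblet-like HT29-line cluster led by FCGBP and MUC2, which overlapped with 45.8, 54.4 and 101 CPM in the enteroendocrine-like cluster. The undifferentiated HT29-like cluster had 117, 149 and 160 CPM of SLC40A1. These values overlapped with 104, 109 and 122 CPM in the transit-amplifying-like cluster led by MCM10 and MYBL2.

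The cluster of SST and ITGA5 combined the highest TFRC with the lowest ferritin of the 10 clusters. TFRC stood there at 530, 556 and 600 CPM, above the 362, 426 and 505 CPM of the enterocyte-like cluster and the 368, 369 and 526 CPM of the cluster of S100A9. FTH1 stood there at 2365, 2047 and 1828 CPM and FTL at 3202, 3387 and 2796 CPM. For FTL this was below all values of the other 9 clusters, and for FTH1 it lay just below the enteroendocrine-like cluster, at 2375, 2933 and 2550 CPM. Cells of the SST and ITGA5 cluster had a median of 3373 UMIs, against 4357 in the enterocyte-like cluster, and 95.01% of them were Caco-2-line cells. SLC30A1 was also highest in these clusters, at 36.5, 55.1 and 70.7 CPM in that of SST and at 42.04, 45.9 and 58.3 CPM in the enterocyte-like one, and these ranges overlapped.

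FTH1 was highest in the undifferentiated HT29-like cluster, led by SNCG and LCN2, at 22970, 24777 and 17838 CPM, with FTL at 9185, 9787 and 8605 CPM. The goblet-like cluster of FCGBP and MUC2, of which 95.2% were HT29-line cells, had far less FTH1, at 7000, 7872 and 5118 CPM. Its leading genes also included SST and GCG, which the paper reports in enteroendocrine-like cells, so its values are not those of goblet-like cells alone. The ratio of FTH1 to FTL was 2.37 ± 0.26 (SD, n = 3 libraries) in the undifferentiated HT29-like cluster. In that of FCGBP and MUC2 it was 0.999 ± 0.057, below all values of the undifferentiated HT29-like one. Between them lay a cluster led by PAGE4 and FCGBP with 9585, 12889 and 9314 CPM of FTH1. Its FTL, at 8144, 9957 and 8191 CPM, overlapped with that of the undifferentiated HT29-like cluster. It met the marker rule for goblet cells, but 78.6% of its cells were Caco-2-line cells and its median of 7238 UMIs was the highest of the 12 clusters, so it is called here by its leading genes. In the other Caco-2-line clusters among the 10 with enough cells in every library, the ratio was lowest in the stem-like cluster of PLA2G2A, at 0.445 ± 0.038. It was highest in the enterocyte-like cluster, at 0.774 ± 0.074.

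CYBRD1 stayed at or below 6.74 CPM in each of the 10 clusters and gave at most 34 UMIs in any cluster and library. In a rare cluster of fetal genes led by FABP7 and PTN it reached 10.4 and 11.3 CPM in the controls, which are 2 and 3 UMIs. The goblet-like cluster of FCGBP and MUC2 and the enteroendocrine-like cluster gave 0 UMIs in every library. A count of 0 allows a level of up to 7.70, 7.85 and 10.5 CPM in the former and 13.7, 11.7 and 21.7 CPM in the latter for control 1, control 2 and LPS, taking 3 counts of the total as the limit, which covers counting error only.

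**Figure D3:**
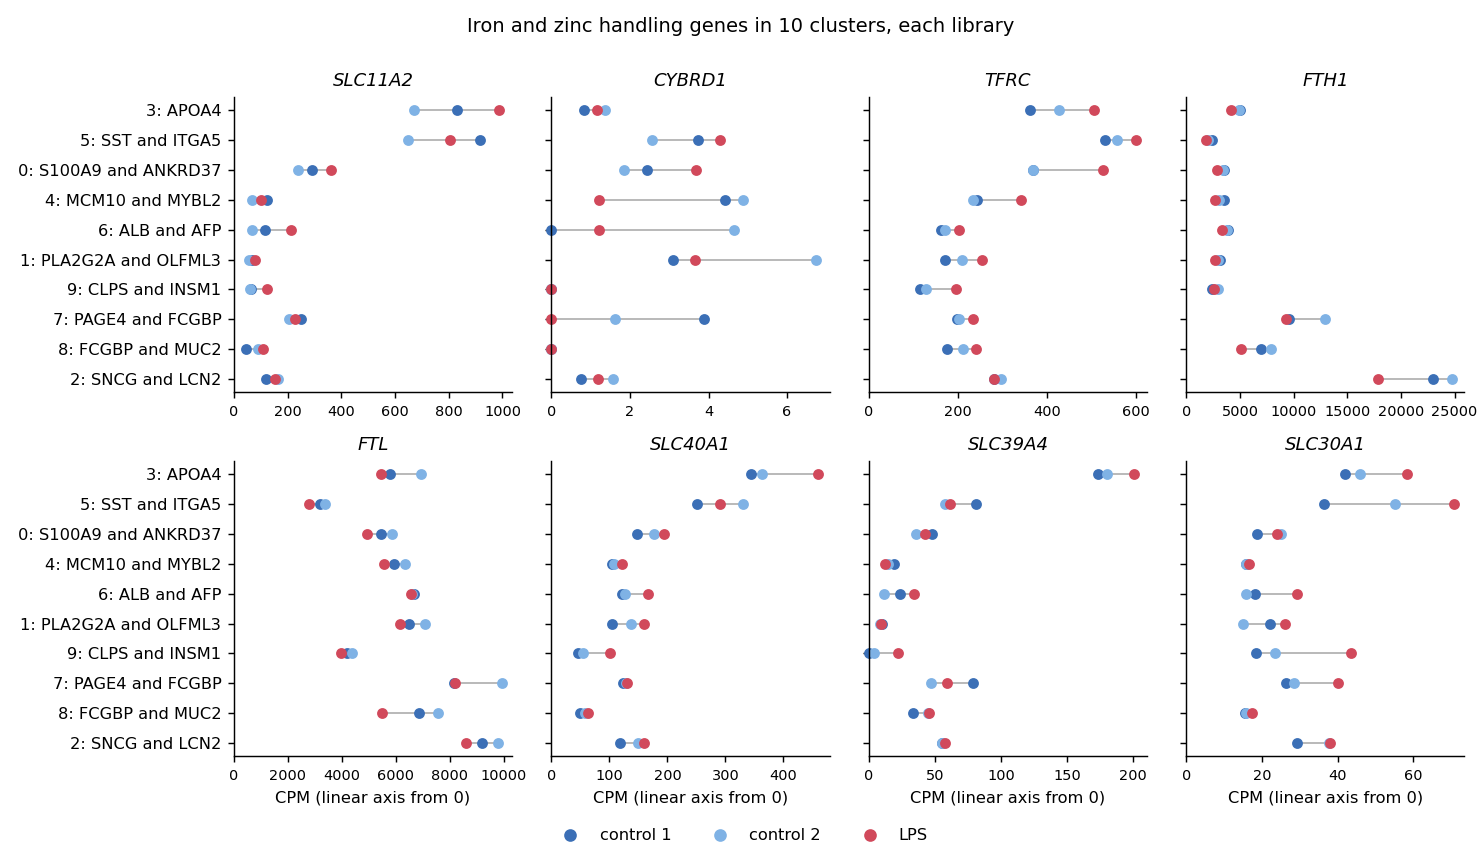
Level of each gene in the 10 clusters that had at least 20 cells in every library, in CPM on linear axes from 0; points are libraries and the grey line spans them. Clusters are labelled by number and 1 or 2 leading genes, with the enterocyte-like cluster at the top and the undifferentiated HT29-like cluster at the bottom. SLC11A2, SLC40A1 and SLC39A4 are highest in the top rows, TFRC in the second row and FTH1 in the bottom row.

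Over the 33 sums of a cluster in a library that had at least 20 cells, the profile of SLC11A2 on the log2(CPM + 1) scale was closest to those of NPNT (Pearson r = 0.92), KIAA2013 (0.89) and CDHR5 (0.89), the last a protocadherin of brush border microvilli. Among the members it was most like SLC39A4 (0.76) and SLC30A1 (0.72). The genes most like SLC39A4 were FAM13A (0.91), GABRA2 (0.90) and MVP (0.88), and among those most like SLC40A1 were CTSB (0.94) and CBR1 (0.93). FTH1 was closest to CSTB (0.96), LCN2 (0.93), itself a binder of iron-loaded siderophores, and PYCARD (0.92), whereas FTL was closest to TXN, COX6A1 and CHCHD2 (0.95 each). TFRC was closest to CORO2A (0.88), UGP2 (0.83) and OPTN (0.81), and SLC30A1 to CAPN2 (0.84), MAPK3 (0.76) and RXRA (0.74). For CYBRD1, with its few UMIs, no gene exceeded the 0.75 of LATS2, followed by FOLR1 and LRP2 (0.74 each). Sums of a library share its depth and free RNA and sums of a cluster share their cells, so these values describe likeness in these libraries only.

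Differentiation within the Caco-2 line was then examined by comparing its enterocyte-like cells with its transit-amplifying-like cells, the cycling cells led by MCM10 and MYBL2. Among the members, the importers and exporters of iron and zinc were higher in the enterocyte-like cells, the luminal importers by the most. FTH1 and TFRC were higher by less. Of the 8 members 7 passed the filter on low counts, each with at least 39 UMIs in every sum, and these 7 were called higher, where among all 11381 genes tested 32.8% were called higher and 32.4% lower. The enterocyte-like cells numbered 786, 603 and 625 and the transit-amplifying-like cells 590, 544 and 624. The median depths were 5265, 4037 and 3568 UMIs in the former and 7455, 5840 and 4650 UMIs in the latter.

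SLC39A4 stood at 173, 180 and 201 CPM in enterocyte-like and at 19.3, 14.3 and 11.8 CPM in transit-amplifying-like cells. The groups were far apart in every library, and the difference was 13.7-fold (log2 3.78 ± 0.11 SE, n = 3 libraries, edgeR adjusted p = 5.88e-92). SLC11A2 stood at 828, 673 and 993 CPM against 124, 66.5 and 101 CPM. Again every library showed the difference, which was 9.97-fold (log2 3.32 ± 0.09, edgeR adjusted p = 7.83e-97). SLC40A1 stood at 343, 364 and 461 CPM against 104, 109 and 122 CPM and was 4.04-fold higher (log2 2.01 ± 0.08, edgeR adjusted p = 9.66e-66). The very small p-values rest on 3 libraries and on a spread that the tests estimate in part from all genes together. They also rest on clusters that were made from the same cells, although without these genes. The size of the difference varied between libraries. In control 1, control 2 and LPS the ratio of CPM of SLC11A2 was 6.67, 10.1 and 9.80. For SLC39A4 that ratio was 8.94 in control 1 and 12.6 in control 2, and it was higher still in LPS.

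SLC30A1, the zinc exporter, stood at 41.99, 45.5 and 58.4 CPM against 15.7, 15.7 and 16.6 CPM, a 3.48-fold difference (log2 1.80 ± 0.13, edgeR adjusted p = 5.35e-32). TFRC stood at 362, 428 and 508 CPM against 244, 235 and 341 CPM. The LPS library was the highest in both classes, and all enterocyte-like values lay above all transit-amplifying-like values (1.85-fold, log2 0.89 ± 0.08, edgeR adjusted p = 8.95e-24). FTH1 stood at 4921, 4880 and 4135 CPM against 3467, 3086 and 2695 CPM, likewise without overlap (1.76-fold, log2 0.81 ± 0.09, edgeR adjusted p = 9.14e-16).

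FTL stood at 5800, 6935 and 5420 CPM against 5931, 6327 and 5552 CPM, and these values overlapped. Its call (log2 0.24 ± 0.09, edgeR adjusted p = 0.0191) was made with scaling by the trimmed mean of M-values, and was lost without control 2 (log2 0.19, edgeR adjusted p = 0.316). With scaling by total counts alone its log2 fold change was 0.02 (edgeR adjusted p = 0.778), the median of all genes moved by -0.23, and the share of called genes that were higher fell from 50.3% to 35.4%. The other 6 members stayed called higher under that scaling. The edgeR folds of FTH1, TFRC and SLC40A1 exceeded the ratio of CPM, which is scaled by total counts, in every library. In control 1, control 2 and LPS that ratio was 1.42, 1.58 and 1.53 for FTH1 and 1.49, 1.82 and 1.49 for TFRC. For SLC39A4, SLC11A2 and SLC30A1 the edgeR folds lay within the range of the libraries. CYBRD1 did not pass the filter, with 4, 4 and 3 UMIs in enterocyte-like and 22, 18 and 4 UMIs in transit-amplifying-like cells. In these sums it was lower in enterocyte-like cells of both controls, at 0.840 and 1.38 CPM against 4.43 and 4.87 CPM, and close to equal in the LPS library, at 1.18 against 1.21 CPM.

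**Figure D4:**
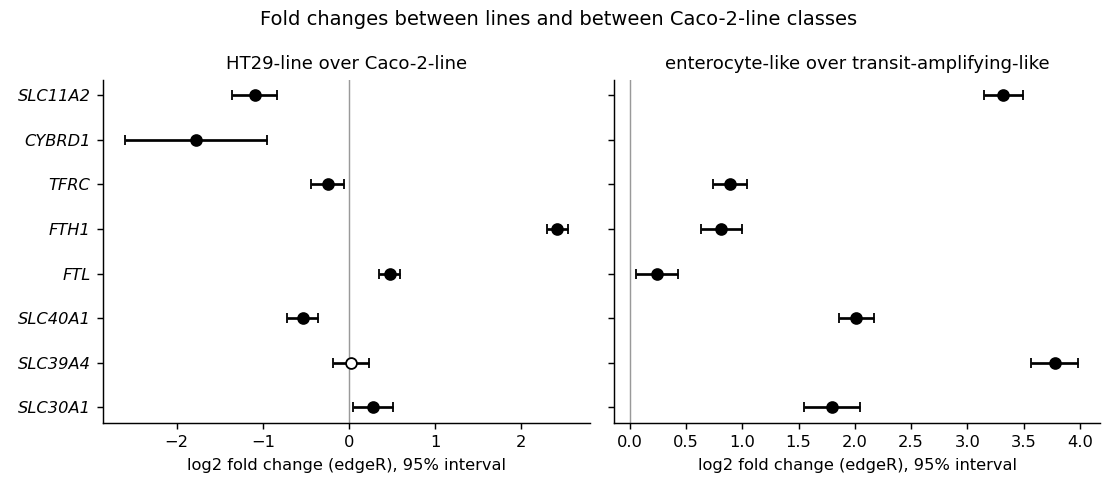
Log2 fold change of each gene with its 95% interval from edgeR, for HT29-line over Caco-2-line cells on the left and for enterocyte-like over transit-amplifying-like Caco-2-line cells on the right; filled points passed the adjusted p of 0.05. SLC11A2 and SLC40A1 lie below 0 on the left and above 2 on the right, FTH1 is the largest on the left, and CYBRD1 is missing on the right because its counts were too low.

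The other genes of iron and zinc metabolism were taken from 6 lists, whose counts are to be read beside the 35.1% of all genes called higher and the 38.0% called lower. Of the list of iron uptake and recycling, 11 genes were tested between the lines, of which 6 were higher and 5 lower in HT29-line cells. The largest differences of all lists were those of STEAP4, a metalloreductase, which gave 1, 0 and 1 UMIs in Caco-2-line and 20, 20 and 22 UMIs in HT29-line cells (log2 6.89 ± 0.54, edgeR adjusted p = 3.03e-10), and of LCN2 (log2 6.21 ± 0.17, edgeR adjusted p = 1.23e-17). With 62 UMIs against 2, the ratio of CPM of STEAP4 over all libraries was 164, with an exact 95% interval from counting of 43.5 to 1384. TF, the serum iron carrier transferrin, was lower in HT29-line cells, at 0.744, 0.485 and 0.571 CPM against 8.25, 6.78 and 11.1 CPM (log2 -3.88 ± 0.34, edgeR adjusted p = 2.00e-09). These low HT29-line values of TF lie within the range of the free RNA genes. STEAP4 passed the filter on low counts through its HT29-line sums and TF through its Caco-2-line sums. These are the groups where they are higher, so both calls are given as descriptions only.

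Of the list of iron storage, export and delivery, 9 genes were tested, of which 0 were higher and 6 lower in HT29-line cells by edgeR, as by DESeq2, and 0 were higher at an unadjusted p under 0.05. The 6 are PCBP1 and PCBP2, chaperones that deliver iron to ferritin, NCOA4, the receptor that carries ferritin to the lysosome, HEPH and CP, oxidases that load exported iron onto transferrin, and FLVCR1, a heme exporter. Of the iron sensing list 2 of 6 were higher and 4 lower, of the zinc importers 5 of 11 and 3, of the zinc exporters 2 of 6 and 2, and of the zinc-buffering genes 4 of 7 and 2. The last group holds metallothioneins, of which MT1E stood at 42.9, 32.0 and 48.6 CPM in HT29-line and at 4.95, 5.26 and 6.20 CPM in Caco-2-line cells, while MT1F was the reverse, at 7.19, 7.27 and 9.14 against 53.3, 54.1 and 49.0 CPM. In the iron uptake and zinc lists, some genes counted as called passed the filter on low counts only through the group where they are higher. The zinc exporters called lower, for example, gave at most 4 UMIs in HT29-line cells of any library. The counts of these lists are therefore given as descriptions only.

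Between enterocyte-like and transit-amplifying-like cells, 6 of 9 tested genes of iron storage, export and delivery were higher and 1 was lower, where 32.8% of all genes were higher and 32.4% lower. Of the list, CP showed the largest difference, at 59.4, 55.9 and 58.8 CPM against 11.9, 4.06 and 8.17 CPM (log2 3.02 ± 0.14, edgeR adjusted p = 2.96e-54). HEPH, the ferroxidase that works with ferroportin at the basolateral membrane, stood at 116, 138 and 166 CPM against 34.0, 35.1 and 39.0 CPM (log2 2.16 ± 0.09, edgeR adjusted p = 2.32e-60), higher in the same cells as SLC40A1. Of the iron sensing list 4 of 6 were higher and 0 lower by edgeR, with 0 lower at an unadjusted p under 0.05. DESeq2 called 3 of that list higher and 0 lower. Among the 4 was TMPRSS6, a protease that restrains hepcidin signalling, at 37.6, 42.4 and 64.3 CPM against 9.86, 14.1 and 9.38 CPM (log2 2.29 ± 0.14, edgeR adjusted p = 1.88e-38). The others called by edgeR overlapped in CPM between the classes. Of the iron uptake list 5 of 8 were higher and 2 lower. The zinc lists were mixed, with 3 importers of 10 higher and 4 lower, 1 exporter of 5 higher and 0 lower by edgeR (0 at an unadjusted p under 0.05, 1 by DESeq2), and 2 zinc-buffering genes of 6 higher and 1 lower. The lower one was MT1A, with 2, 2 and 1 UMIs in enterocyte-like and 38, 25 and 30 UMIs in transit-amplifying-like cells (log2 -3.67 ± 0.47, edgeR adjusted p = 1.08e-12). MT1A passed the filter on low counts through the transit-amplifying-like sums, where it is higher, so its call is given as a description only. Some genes counted as higher in the storage and zinc-buffering lists passed only through the enterocyte-like sums, where they are higher. The counts of these lists are descriptions too.

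Finally, the LPS library was set beside the controls. No member passed the test in either line. In Caco-2-line cells 0.0774% of 15494 genes were called, and of the members 0 of 8 by edgeR and 0 by DESeq2, with 2 (FTH1 and TFRC) at an unadjusted p under 0.05 in each tool. TFRC stood at 286 and 299 CPM in the controls and at 394 CPM in the LPS library (log2 0.36, 95% interval 0.06 to 0.65, edgeR adjusted p = 0.755). FTH1 stood at 3912 and 3857 CPM in the controls and at 3041 CPM in the LPS library (log2 -0.43, 95% interval -0.81 to -0.05, edgeR adjusted p = 0.76). In HT29-line cells 0.248% of 12078 genes were called and 0 of the 7 members tested by edgeR, and 0 by DESeq2, with FTH1 alone at an unadjusted p under 0.05 in both. It stood at 21461 and 22648 CPM in the controls and at 16697 CPM in the LPS library (log2 -0.45, 95% interval -0.75 to -0.16, edgeR adjusted p = 0.386). These tests have 1 residual degree of freedom and assume that the lone LPS library varies as the controls do.

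The direction was nearly the same from cluster to cluster. The LPS library lay below both controls in 9 of the 10 clusters for FTH1 and for FTL, whereas 2.33% of 5963 genes at a mean of 20 CPM or more did so in at least 9 clusters. It lay above both controls in 9 of 10 clusters for TFRC, SLC40A1 and SLC30A1, as did 2.26% of those genes. For SLC11A2 it lay above both in 6 and below both in 0, for SLC39A4 above in 5 and below in 1, and for CYBRD1 above in 2 and below in 2. The median over clusters of the log2 ratio of LPS to the control mean was -0.27 for FTH1 and -0.14 for FTL, and 0.34 for TFRC, 0.26 for SLC40A1 and 0.45 for SLC30A1. CPM is scaled by total counts. In the tests of LPS by line, that scaling raised the median log2 fold change of all genes by 0.08 in Caco-2-line and 0.05 in HT29-line cells. Between the controls the medians were -0.03, 0.10, 0.07, 0.24 and 0.12 for control 2 over control 1, so for SLC40A1 the controls differed nearly as much. In single clusters the control ratios ran from -0.21 to 0.43 for FTH1, -0.02 to 0.29 for FTL and -0.05 to 0.30 for TFRC. They ran from 0.05 to 0.40 for SLC40A1 and from -0.57 to 0.60 for SLC30A1, so its median of 0.45 lay within the spread of the controls. All clusters of a library share its preparation, depth and free RNA, and the LPS library had the lowest median depth and the highest free RNA level, so treatment and library cannot be told apart.

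Whether LPS acted differently in the lines was tested as the difference of the effects, which called 0.0998% of 14027 genes and 0 of the 8 members in edgeR, with TFRC alone at an unadjusted p under 0.05. For TFRC the difference, HT29-line minus Caco-2-line, was -0.41 (95% interval -0.78 to -0.04, edgeR adjusted p = 1.0), and for FTH1 it was -0.02 (-0.24 to 0.19). DESeq2 was not run on this difference. Of the listed genes beside the members, 0 of 51 were called in Caco-2-line cells by edgeR, with 7 higher and 2 lower at an unadjusted p under 0.05, and 0 by DESeq2. In HT29-line cells 1 was called, MT2A, a metallothionein that buffers zinc, at 22.8 and 20.6 CPM in the controls and 46.3 CPM in the LPS library (log2 1.04 ± 0.26, edgeR adjusted p = 0.0326). The MT2A call was lost in DESeq2 (adjusted p = 1.0), without the filter on low counts and with the line assigned by whole clusters.

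**Figure D5:**
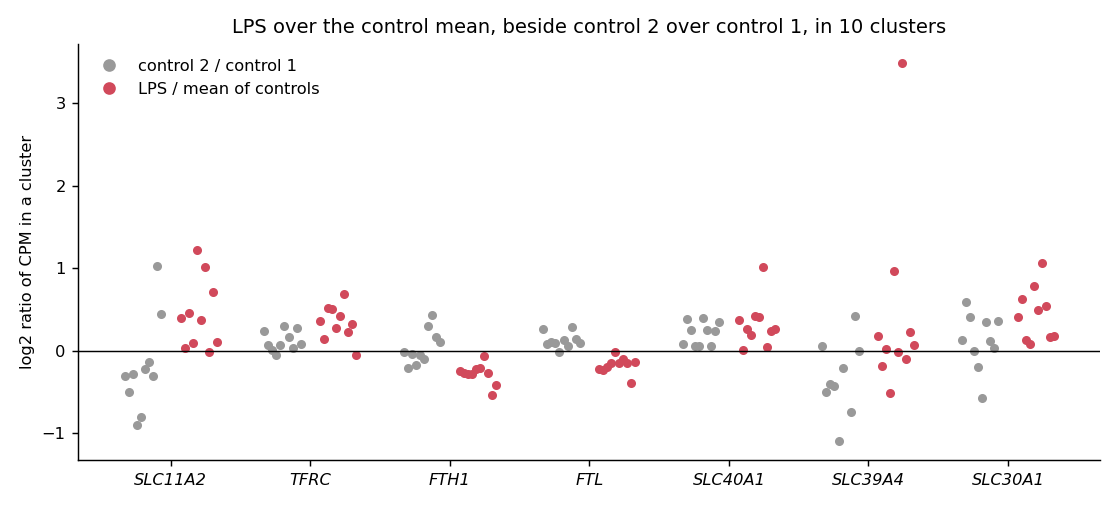
Log2 ratio of CPM in each of 10 clusters, for LPS over the control mean in red and, as the spread between controls, control 2 over control 1 in grey; CYBRD1 is left out for its low counts. FTH1 and FTL lie below 0 and TFRC, SLC40A1 and SLC30A1 mostly above it in red, and the highest red point of SLC39A4 rests on 0, 1 and 3 UMIs in the enteroendocrine-like cluster.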

How the data were processed

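UMI counts per gene and barcode were used as deposited. Per the labels and methods, the authors mapped 10x Genomics 3′ reads to GRCh38 with Cell Ranger, and the deposited counts are neither normalized nor filtered to the study's cells. The matrix header names Cell Ranger version 3.1.0, whereas the paper names another version. Control 1 cells needed 2250 UMIs with 770 genes and the other libraries 1500 with 700, all with at most 20% mitochondrial UMIs, and the 6% with the highest Scrublet score (scanpy 1.11.5) were removed per library, because the automatic threshold marked 0, 0 and 1 cells. Lines were assigned by a 2-component mixture (posterior 0.95) on the score of the study's HT29 list minus its Caco-2 list, without members and listed genes. SCTransform (sctransform 0.4.2), anchor integration (Seurat 5.3.0; 3000 features, none of them a member or listed gene), 50 components, 15 neighbours and Leiden clustering at 0.5 gave clusters, named where at least 3 markers of a class were raised. Counts summed per line or class and library were tested with edgeR 4.0.16 (R 4.3.3; TMM, filterByExpr, quasi-likelihood test, Benjamini-Hochberg threshold 0.05), with the library as a term except for LPS; DESeq2 1.42.0 was an alternative. Scripts were tested on simulated data. Members, lists, markers and tests were chosen with earlier results of these data known. Named are the members, the 3 called listed genes of largest change per comparison and the 3 genes most like each member at a mean of 20 CPM, of which 1 is not reported here; HEPH, PCBP1, PCBP2, NCOA4, FLVCR1, MT1E and MT1F, and the checks LCN2, KLK10 and TCN1, were added after their values were seen. Intervals and floors for UMIs cover counting error only. Gene positions and UTRs come from GENCODE v44 by gene ID; the annotation used for counting is not given in the sources used here.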

Additional observations from a re-analysis of the deposited data

How the results depend on the processing

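The calls of the members that held or failed were as follows, over the normalization, filter, tool, cell minimums, doublets, line assignment, library term, depth and clustering settings run. Between the lines FTH1, FTL, SLC11A2 and SLC40A1 kept their direction and call in the settings run, as did CYBRD1 except at 1500 UMIs per cell, where it did not pass the filter and gave no value. SLC39A4, never called between the lines, changed sign there without the filter on low counts (-0.046) and at 1500 UMIs per cell (-0.18). It also did so without 1 of the controls (-0.057), but not without the other (0.126). For LPS in Caco-2-line cells it changed sign with scaling by total counts (0.035 against -0.044), a setting chosen after seeing the data. TFRC between the lines was no longer called without the library term, without the LPS library and with scaling by total counts, and SLC30A1 in 7 settings. FTL between enterocyte-like and transit-amplifying-like cells was no longer called in 6 of its 11 alternatives, whereas the other 6 members stayed called higher in all 11. CYBRD1, which lacked counts there, was lower in the 6 settings that gave a value (log2 -1.86 to -0.59), and called in 4. It had 4, 4 and 3 UMIs in the enterocyte-like sums of the main clustering. Its calls there and between the lines are therefore descriptions only, whatever the setting. The number of genes called for LPS in Caco-2-line cells, 12, became 5 in DESeq2, 59 without the filter, 1 with the minimums of control 1 in every library, 22 with no doublets removed and 20 with scaling by total counts. In HT29-line cells 30 became 3 in DESeq2, 0 in edgeR without the filter (where 301 genes had an unadjusted p under 0.05) and 11 with the line taken by whole clusters. The cause of these changes was not tested. No member was called for LPS in any setting. Leaving out a control left no residual degrees of freedom for LPS, so those are values without a test. No paired analysis was possible because the groups share only replicate number 1. The lone LPS library, the small counts of CYBRD1 and free RNA between the lines limit differences of low genes.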

Other observations

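Cells that fell between the lines entered no comparison. Of these, 52, 86 and 70 cells of control 1, control 2 and LPS had at least 10 ferritin UMIs, and the median share of FTH1 in them was 55.3%, 60.5% and 51.6%, between the medians of the lines in each library. FTH1 exceeded 50% of the ferritin UMIs in 65.4%, 70.9% and 60.0% of them. All cells between the lines were set apart by their score, and had median depths of 8759.5, 4175.5 and 4350.5 UMIs. The medians were 5474, 4229.5 and 3572 UMIs in Caco-2-line and 5353, 3727 and 3540 UMIs in HT29-line cells. Whether some of these barcodes held RNA of both lines was not tested, so the shares do not show an intermediate state of single cells.

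The rare cluster of fetal genes led by FABP7 and PTN, the genes of which are those of placenta and fetal tissue, had 21, 41 and 8 cells and was summed in the controls only. In it TFRC stood at 469 and 444 CPM, SLC40A1 at 214 and 207 CPM, SLC11A2 at 125 and 109 CPM and FTH1 at 4974 and 4086 CPM. The ratio of FTH1 to FTL UMIs was 1.20 and 0.893, above that of the enterocyte-like and stem-like clusters in the same library, and 98.6% of its cells were Caco-2-line cells. With 2 sums no test was run.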
